A study of Mus musculus with 5 samples.

Results

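The nuclear-encoded genes of the mitochondrial respiratory chain and ATP synthase were followed through single-cell libraries of the mouse temporomandibular joint (TMJ) disc. Members were taken by symbol, as genes that start with Ndufa and a digit, Ndufb, Ndufc, Ndufs, Ndufv, Uqcr, Cox4 to Cox8 or Atp5, with pseudogenes ending in -ps left out, and 80 of the 27998 listed genes matched. They comprised 37 genes of complex I, 8 of complex III, 18 of complex IV and 17 of complex V, and are set beside the 13 protein genes of the mitochondrial genome, whose symbols start with mt-. The prefixes also take in a few genes whose products are not fixed subunits: Ndufa4, named for complex I, is now placed with complex IV, Cox7a2l is a supercomplex factor, and Atp5s and Atp5sl are accessory factors. Subunits under other symbols, such as Cyc1 of complex III and Usmg5 of complex V, are not members and were counted in other lists.

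Complex I takes electrons from NADH, complex III passes them to cytochrome c, and complex IV hands them to oxygen, while protons are pumped across the inner membrane and complex V uses their return to make ATP. Each of these complexes is built from subunits of both genomes, so that nuclear transcripts and mt- transcripts supply parts of the same enzyme. Several subunits exist in alternative versions from separate nuclear genes, of which Cox4i2 and Ndufa4l2 are known for induction at low oxygen and Cox6a2, Cox7a1 and Cox8b for heart and skeletal muscle. The disc is a fibrocartilage with few vessels, whose cells are often described as relying on glycolysis.

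A total of 5 libraries was analysed, 1 per condition, all of WT C57BL/6 discs by the labels. Untreated discs gave libraries of mice aged 3 d, 3 w and 16 w and of aged mice at 78 w. The age of 78 w is that of the label, while the deposited data of this library are named for 16 months. For the injured library discs were punctured with a needle at 5 weeks of age and taken 2 weeks later, at 7 w. By the methods the pups were of both sexes and the older untreated mice males, so age and sex cannot be told apart at 3 d, and the sex of WT mice in the injured group is not given in the sources used here. The labels give WT for the injured disc, while the methods describe the injury in Myh11-CreER; Tm fl/- mice, whose mural cells carry a tamoxifen-induced reporter. No library of uninjured discs at 7 w was analysed here, so the injured library is set against those of 3 w and 16 w, whose ages bracket it.

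Depth was 125130270 UMIs (unique molecular identifiers, each counting 1 captured transcript) at 3 d, 125427849 at 3 w, 88998394 at 16 w, 105309834 at 78 w and 31585993 in the injured library. Cells were clustered without the members, the mt- genes or the cytosolic ribosomal protein genes, and the 12 clusters were named only where fixed markers allowed it. Clusters 1 to 3 were stromal-like, with 20024, 13892 and 7591 cells. Their leading genes included Chad and Cytl1 in cluster 1, Kera and Tnmd in cluster 2, and Pi16 and Sfrp2 in cluster 3. At 3 d the stromal-like cells lay mostly in clusters 2 and 3, with 110 in cluster 1, and in the other libraries mostly in cluster 1. Endothelial-like (3407 cells), macrophage-like (1462), mural-like (1260) and synovial lining-like (1300) clusters were also found, besides erythroid-like and Schwann-like cells. Cluster 5, with few UMIs and led by muscle genes, and cluster 10 stayed unnamed. Pairs of libraries shared 19 to 39 cell barcodes, at most 0.415% of a library.

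The injured library stood apart from the others before any member was considered. Its stromal-like cells had a median of 3575 UMIs, against 8440 to 13230 in the other libraries. The 10 genes that led cluster 10, all of them predicted Gm genes, held 11499 of every 1000000 UMIs in the injured library and between 23.2 and 637 in the others, and 160 of the 188 cells of that cluster were injured-disc cells. The part of these features in the injured values below was not tested.

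Where 5 values follow each other they run from the youngest to the oldest untreated library and end with the injured one. Levels are given as CPM, the UMIs of a gene or list per 1000000 UMIs of all genes, with the cells of each class pooled by library. With 1 library per condition there is no replicate error and no test was possible, so ratios stand with exact 95% intervals where the count is the main limit, and these cover counting error only. A gene was compared where its mean over the 5 libraries was at least 10 CPM with at least 100 UMIs, and a ratio of at least 1.5 in either direction was counted as a difference. In stromal-like cells 73 of the 80 members and 7505 genes in all passed this filter. The members left out were Cox6a2, Cox7a1, Cox7b2, Cox8b, Cox8c, Atp5s and Atp5sl.

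In stromal-like cells the summed members stood high in the newborn disc, lower in the juvenile and adult disc, and high again after injury. The sum was 18439, 13054, 11870, 14039 and 19645 CPM. The 13 mt- genes followed another course, with 44626, 29459, 32395, 25025 and 19720 CPM. Hence the newborn and injured discs, close in the sum of their nuclear members though not in every single member, lay at opposite ends for the mt- sum. For each UMI of an mt- gene there were 0.413 UMIs of members at 3 d, 0.443 at 3 w, 0.366 at 16 w, 0.561 at 78 w and 0.996 in the injured disc. The injured disc had the highest value of this ratio in stromal-like, endothelial-like, macrophage-like, mural-like and synovial lining-like cells alike, from 0.794 in mural-like to 1.29 in macrophage-like cells.

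**Figure D1:**
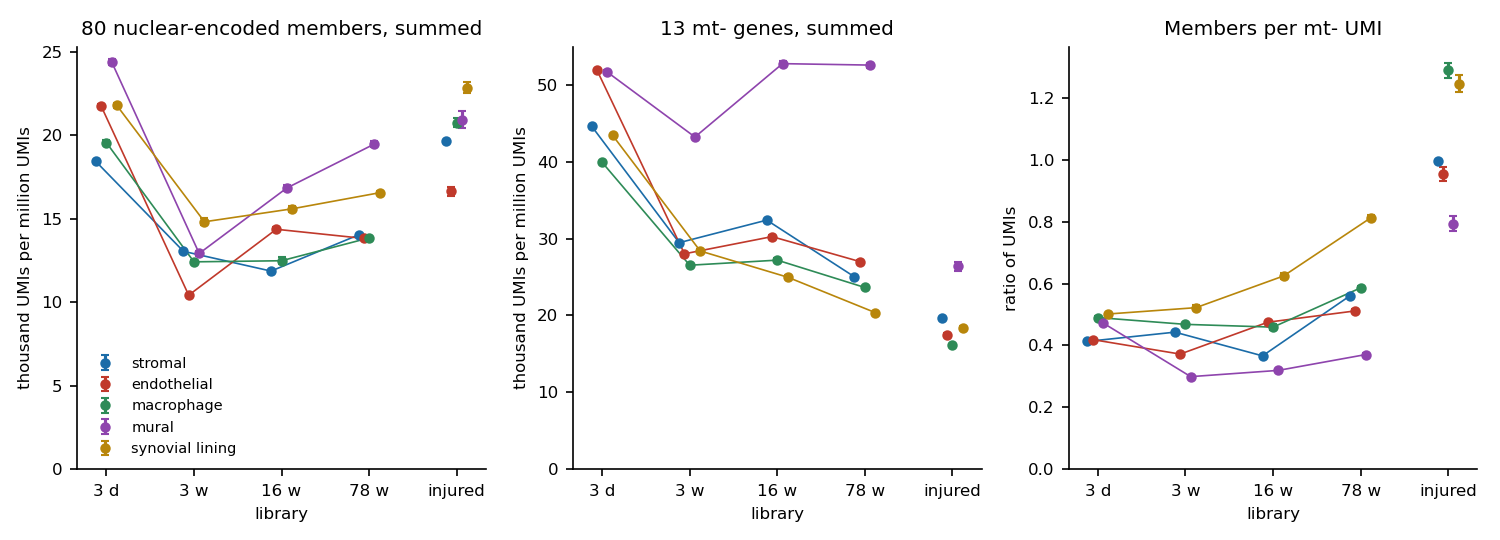
Summed CPM of the 80 members, summed CPM of the 13 mt- genes and members per mt- UMI (vertical axes) in each library (horizontal axis), with 1 point per cell class, bars for exact 95% counting intervals and lines joining the untreated ages. In stromal-like cells the members stood at 18439 at 3 d, 11870 at 16 w and 19645 in the injured disc, where the mt- genes were at their lowest, 19720.

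The level per cell gave the same order. The median stromal-like cell spent 1.83% of its UMIs on the members at 3 d, 1.27% at 3 w, 1.14% at 16 w, 1.33% at 78 w and 1.91% in the injured disc. When cells were split by their UMI count, the member sum ran from 19497 to 20613 CPM over 5 ranges of depth in the injured disc, from 16072 to 18592 at 3 d, from 11422 to 14831 at 78 w, from 12822 to 15640 at 3 w and from 10996 to 12224 at 16 w. Injured cells were above those of 3 w and 16 w within every range of depth. Some ranges held few cells, with 31 injured cells at 20000 UMIs or more, and 50 cells at 3 w and 63 at 16 w under 2000 UMIs. The part of library depth in these differences was not tested.

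Among single mt- genes in stromal-like cells, mt-Nd1, of complex I, had 3623, 1257, 1646, 1106 and 911 CPM, and mt-Co3, of complex IV, had 8864, 5324, 4719, 3084 and 2446 CPM. Both were highest at 3 d and lowest in the injured disc, as the mt- sum was, whereas mt-Atp8, of complex V, was lowest at 3 d with 29.1, 77.4, 148, 143 and 129 CPM. Among the untreated ages 7 of the 13 mt- genes were highest at 3 d, 1 at 3 w and 5 at 16 w. The same held for 35.1%, 34.0% and 19.4% of all genes. Lowest at 3 d were 3 of the 13, where 43.2% of all genes were. Injured levels were below both 3 w and 16 w for 10 of the 13 mt- genes, where 54.9% of all 7505 compared genes were.

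By complex, the sums moved together with unequal size. Complex I stood at 6245, 4775, 4225, 5226 and 6804 CPM. Complex III, the cytochrome bc1 complex, stood at 1914, 1424, 1209, 1378 and 2247 CPM. Complex IV, cytochrome c oxidase, stood at 4889, 3390, 3330, 3768 and 5638 CPM, and complex V at 5391, 3466, 3106, 3667 and 4956 CPM. Complex V was the only one of the 4 whose injured sum stayed below that of 3 d, but complex I without Ndufa4l2 did so too. Of the complex I sum, Ndufa4l2 alone gave 564 to 1703 CPM, so complex I without it changed more from 3 d to 3 w, with a ratio of 0.656 in place of 0.765.

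From 3 d to 3 w the members of all complexes were lower in stromal-like cells. The sum changed by a ratio of 0.708 (0.7064 to 0.7095) and the median member by 0.646, while the median of all 7505 genes was 1.13, a log2 shift of 0.17. At least 1.5-fold lower were 42 of 73 members, where 19.9% of all genes were, and 2 were higher, where 31.6% of all genes were. Scaled by median-of-ratios size factors, which set the median gene near 1, 52 members were lower and 2 higher, and the split of all genes went from 2368 higher and 1490 lower to 1952 and 1898. The 42 comprised 22 of 37 genes of complex I, 5 of 8 of complex III, 7 of 13 of complex IV and 8 of 15 of complex V. The largest difference was in Cox6b2, the testis version of the complex IV subunit 6b, with 57.5, 7.33, 9.15, 6.74 and 19.7 CPM. Cox6b2 passed the filter on low values mainly through its 3 d level. Ndufa3, a small accessory subunit of complex I, had 114, 33.5, 27.2, 31.4 and 134 CPM, and Atp5k, subunit e of the membrane part of complex V, had 152, 56.8, 65.0, 76.8 and 212 CPM. Both were thus high at the 2 ends, at 3 d and after injury, and low between them, with 3 w to 3 d ratios of 0.295 and 0.373.

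The 2 members that were higher at 3 w were Cox4i2 and Ndufa4l2, with ratios of 1.92 and 1.86. A further member, Ndufa6, had a ratio of 1.42. Other lists are set against the background of all genes, 31.6% higher and 19.9% lower. Among them, 65 of 86 cytosolic ribosomal protein genes were lower and 1 higher (median ratio 0.559). Of 71 mitochondrial ribosomal protein genes 26 were lower and 5 higher (median 0.731). Of 23 assembly factors 5 were lower, near the background for lower genes, and 2 higher (median 0.842). Of 16 genes of the citric acid cycle 1 was lower and 1 higher (median 0.890). Of 14 glycolytic genes 6 were higher and 1 lower (median 1.43), led by Pfkp, a phosphofructokinase, with 14.5 CPM at 3 d and 99.9 at 3 w. Of 8 regulators of mitochondrial biogenesis that were compared, 5 were higher and 1 lower (median 1.87). Cell cycle genes, 7 of 8 lower with a summed level of 625 CPM at 3 d and 69.1 to 90.8 in the other libraries, moved with the members, and so did the 6 erythroid markers, at 806 CPM at 3 d and 3.97 to 215 elsewhere, led by Hbb-bs. The part of either in the member values was not tested.

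Other lists also differed between the libraries in stromal-like cells. The nuclear RNAs Malat1, Neat1 and Meg3, whose share is read as a sign of RNA quality, summed to 19911, 40265, 48676, 39365 and 64029 CPM, lowest at 3 d and highest in the injured disc, with Malat1 giving 17109 to 62907 CPM of it, while Neat1 and Meg3 were lower in the injured disc than at 3 w. The 7 synovial lining markers summed to 157, 2939, 7940, 12017 and 3610 CPM. The part of these lists in the member values was not tested.

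From 3 w to 16 w the sum changed by a ratio of 0.909 (0.907 to 0.912) and the median member by 0.878, close to the 0.923 of all genes. Lower were 12 of 73 members, where 15.8% of all genes were, and 1 was higher, where 9.23% of all genes were, so the count lay near the background. With size factors 9 members were lower and 1 higher, while all genes went from 693 higher and 1186 lower to 932 and 853. The higher one was Cox4i2, at a ratio of 1.70. The largest decrease was in Uqcrfs1, the Rieske iron-sulfur subunit of complex III, with 89.8, 117, 47.1, 52.9 and 60.5 CPM. Ndufa4 followed with 331, 163, 88.8, 112 and 292 CPM, and Ndufc2, an accessory subunit of complex I, with 190, 123, 67.3, 89.99 and 124 CPM. Ndufa1, a membrane-arm subunit, and Uqcr11, the smallest subunit of complex III, lay on the other side, with ratios of 1.38 and 1.28. Over the same interval the mt- genes had a summed ratio of 1.10, with 11 of 13 above 1, and 19 of 86 cytosolic ribosomal protein genes were higher and none lower.

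From 16 w to 78 w nearly every member was a little higher. The summed ratio was 1.18 (1.18 to 1.19), and 68 of 73 members had a ratio above 1, where 43.6% of all genes did. Only Atp5g1, one of the genes for the c subunit that forms the rotating ring of complex V, passed 1.5-fold, at 1.51, where 3.02% of all genes were higher. No member was 1.5-fold lower, where 2.66% of all genes were. Size factors left both counts as they were and moved all genes from 227 higher and 200 lower to 288 and 158. Atp5g1 had 336, 127, 115, 173 and 265 CPM. Atp5g2, with 632, 344, 338, 487 and 554 CPM, and Ndufs3, a core subunit of complex I with 86.8, 74.1, 43.6, 62.5 and 55.2 CPM, came next with ratios of 1.44 and 1.43. The 3 lowest were Cox6b2 at 0.737, Cox7a2l at 0.840 and Uqcrc1, a core protein of complex III, at 0.921. Against this, all 13 mt- genes were lower at 78 w (summed ratio 0.772), 7 of 8 biogenesis regulators had a ratio below 1, and 11 of 14 glycolytic genes had a ratio above 1.

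In the injured disc many members were higher and some were lower, with large differences in both directions. Against 3 w the summed ratio was 1.505 (1.5002 to 1.5095), with 35 of 73 members higher, where 10.8% of all genes were, and 10 lower, where 32.6% of all genes were. Against 16 w the summed ratio was 1.66 (1.65 to 1.66), with 38 members higher, where 13.8% of all genes were, and 6 lower, where 28.2% of all genes were. The median of all genes was below 1 in both, with log2 shifts of -0.31 and -0.22, and the median member lay at 1.41 and 1.60. With size factors, which remove that shift, 41 members were higher and 6 lower against 3 w, and 47 higher and 1 lower against 16 w. All genes then went from 813 higher and 2444 lower to 1460 and 1275 against 3 w, and from 1033 and 2114 to 1535 and 1325 against 16 w. Both comparisons share the injured library. Of the 73 members, 49 lay above both the 3 w and the 16 w level and 11 below both, where 22.9% and 54.9% of all genes did. Of 86 cytosolic ribosomal protein genes 43 lay above both and 25 below both, so a position above both was not particular to the members.

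The members highest against 3 w were Ndufa3 at 3.99 (3.81 to 4.18), Atp5e at 3.74 and Atp5k at 3.73, and those highest against 16 w were Ndufa3 at 4.91, Ndufa4 at 3.28 and Atp5k at 3.26. Atp5e, the epsilon subunit of the F1 part of complex V, had 578, 251, 292, 358 and 940 CPM, with the injured level the highest. The lowest against both was Cox7a2l, with 449, 408, 367, 308 and 108 CPM and ratios of 0.266 and 0.295. Ndufa9, an accessory subunit near the quinone site of complex I, had 44.8, 32.0, 22.2, 25.2 and 13.2 CPM and ratios of 0.413 and 0.596. For Cox7a2l and Ndufa9 the injured level was therefore below that of every untreated age. Atp5b, the catalytic beta subunit of complex V, was the third lowest against 16 w at 0.620, with 301, 288, 316, 319 and 196 CPM.

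**Figure D2:**
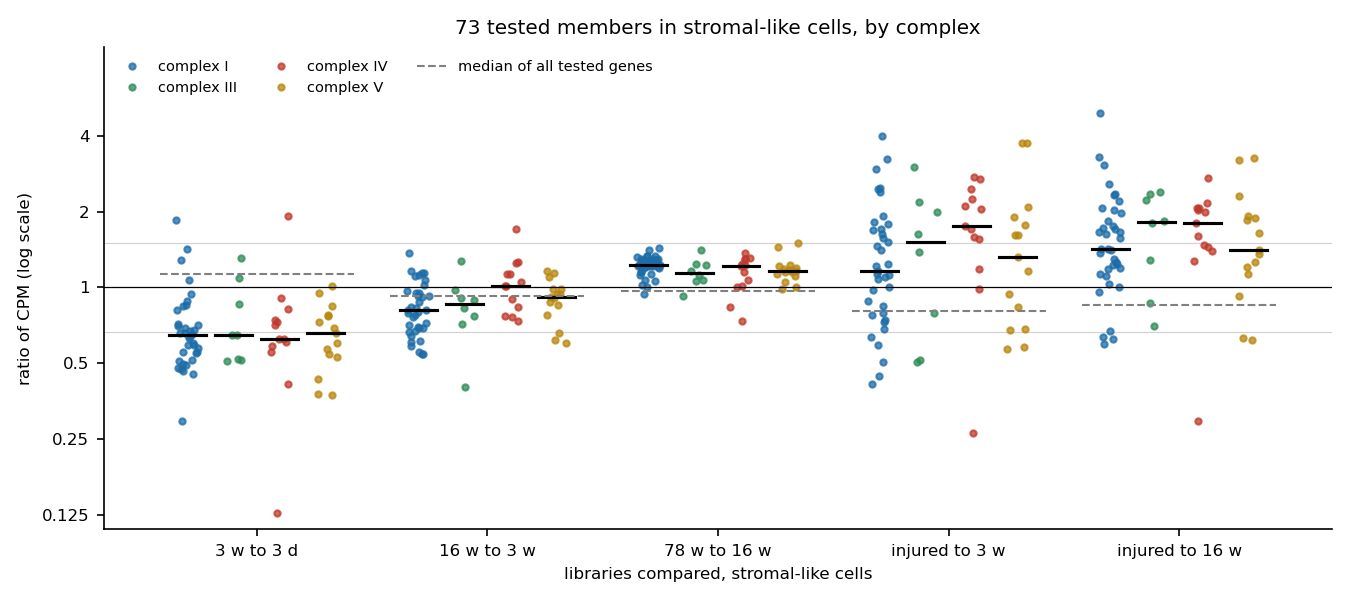
Ratio of CPM in stromal-like cells (log axis) for the 73 compared members in 5 comparisons of libraries, with 1 point per member, colours for complexes, black bars for the median of a complex, dashed lines for the median of all tested genes and grey lines at 1.5-fold. Most members lie below 1 from 3 d to 3 w (median 0.646), slightly above 1 from 16 w to 78 w (68 of 73), and spread from 0.266 to 3.99 for the injured disc against 3 w.

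Some catalytic and core members lay below both the 3 w and the 16 w level after injury, and others lay between them. Ndufs1, the large iron-sulfur subunit of complex I, had 24.5, 31.6, 25.1, 23.8 and 16.0 CPM. Ndufv1, which binds NADH, had 71.7, 48.3, 45.9, 52.8 and 28.6 CPM, Uqcrc1 88.6, 45.8, 41.6, 38.3 and 36.2 CPM, and Atp5a1, the alpha subunit of complex V, 283, 239, 220, 218 and 139 CPM. With Atp5b these were below both 3 w and 16 w in the injured disc, where 54.9% of all genes were, so this position was common among genes. Uqcrfs1, at 60.5 CPM, and the core subunit Ndufs3 lay between the 3 w and 16 w levels.

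The members that were higher after injury mostly had short transcripts. Spliced length is given here as the median over a gene's protein-coding transcripts in GENCODE M21. All 26 members under 600 bases had a ratio above 1 against 3 w and also against 16 w, with medians of 1.802 and 2.04. Of the 26 members of 600 to 1000 bases 18 and 25 did, with medians of 1.23 and 1.42, and of the 16 members of 1000 to 2000 bases 3 and 8 did, with medians of 0.683 and 1.03. The remaining 5 members, of 2000 to 4000 bases, had medians of 0.779 and 1.002. Ndufa3 has 433 bases, Atp5e 421 and Atp5k 322, against 1103 for Cox7a2l and 1342 for Ndufa9. Over the 73 members, length and ratio had a Spearman rho of -0.67 against 3 w and -0.69 against 16 w, as a description over genes that share both libraries.

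A relation of the same sign was seen over all compared genes and over the cytosolic ribosomal protein genes. All 145 compared genes under 600 bases had median ratios of 1.78 against 3 w and 1.78 against 16 w, next to 1.802 and 2.04 for the short members. Of these 145 genes, 64.1% and 68.3% were at least 1.5-fold higher. The short members are among the 145, so the 2 sets are not separate. Over all genes with a length rho was -0.21 against 3 w and -0.40 against 16 w, and over 86 cytosolic ribosomal protein genes it was -0.50 and -0.32. The members have a median length of 732 bases, against 2667 for all compared genes. From 3 d to 3 w the relation ran the other way, with rho of 0.30 over members and 0.23 over all genes, and members under 600 bases had a median of 0.609 against 0.612 for all genes of that length. From 3 w to 16 w the signs differed, with rho of -0.30 over members, -0.47 over cytosolic ribosomal protein genes and 0.25 over all genes. From 16 w to 78 w rho was -0.13, 0.24 and -0.42 in the same order. The part of length, of the shallower injured library and of its Gm transcripts in these ratios was not tested.

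**Figure D3:**
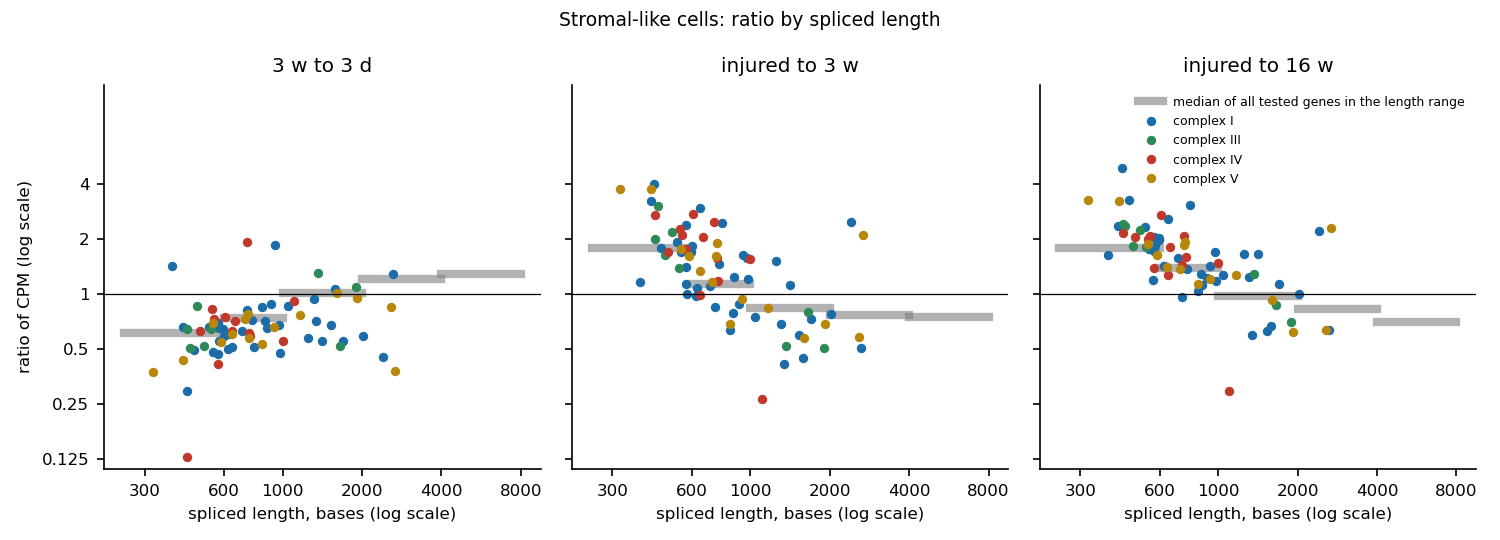
Ratio of CPM in stromal-like cells (log axis) against spliced length in bases (log axis) for the 73 members, coloured by complex, with grey bars for the median of all tested genes in 5 ranges of length. For the injured disc against 3 w all 26 members under 600 bases lie above 1, and the grey bars fall from 1.78 for the shortest genes to 0.747 for the longest.

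The promoters of the 3 members highest and the 2 lowest against 3 w are shown with RefSeq sequence of build GRCm38.p6, from 250 bases before to 50 after the annotated start, because these genes mark both ends of the injury comparison. They lie at chr7:3617123-3617422 (plus strand) for Ndufa3, chr2:174464052-174464351 (minus) for Atp5e, chr5:108434350-108434649 (minus) for Atp5k, chr6:126849095-126849394 (minus) for Ndufa9 and chr17:83514284-83514583 (minus) for Cox7a2l. Capitals mark matches on either strand to GCGCATGC (the core read by NRF1), CCGGAAG (ETS factors such as GABPA), AAGATGGC (YY1-type) and AAGGTCA (estrogen-related receptors).
Ndufa3: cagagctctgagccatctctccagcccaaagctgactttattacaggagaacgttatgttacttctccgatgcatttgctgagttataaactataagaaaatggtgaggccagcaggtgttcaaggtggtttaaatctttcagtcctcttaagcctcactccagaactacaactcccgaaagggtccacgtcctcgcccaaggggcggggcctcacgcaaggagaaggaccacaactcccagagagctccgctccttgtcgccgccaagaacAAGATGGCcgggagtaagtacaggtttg
Atp5e: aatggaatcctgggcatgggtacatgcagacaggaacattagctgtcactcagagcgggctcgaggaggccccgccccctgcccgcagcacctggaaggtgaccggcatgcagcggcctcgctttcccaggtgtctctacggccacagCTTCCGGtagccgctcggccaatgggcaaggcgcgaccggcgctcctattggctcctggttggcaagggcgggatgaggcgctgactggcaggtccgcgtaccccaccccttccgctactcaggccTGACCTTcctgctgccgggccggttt
Atp5k: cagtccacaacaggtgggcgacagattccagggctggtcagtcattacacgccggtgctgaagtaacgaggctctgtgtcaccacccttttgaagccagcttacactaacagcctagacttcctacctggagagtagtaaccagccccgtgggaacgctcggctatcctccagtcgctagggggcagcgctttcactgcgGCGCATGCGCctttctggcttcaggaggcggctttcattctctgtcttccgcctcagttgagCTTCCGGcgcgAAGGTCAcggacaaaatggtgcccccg
Ndufa9: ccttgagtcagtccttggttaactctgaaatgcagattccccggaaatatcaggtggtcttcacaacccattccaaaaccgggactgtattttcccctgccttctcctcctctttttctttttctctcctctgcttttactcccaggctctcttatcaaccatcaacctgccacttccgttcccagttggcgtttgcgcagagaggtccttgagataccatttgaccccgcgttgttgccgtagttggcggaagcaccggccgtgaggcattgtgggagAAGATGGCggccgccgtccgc
Cox7a2l: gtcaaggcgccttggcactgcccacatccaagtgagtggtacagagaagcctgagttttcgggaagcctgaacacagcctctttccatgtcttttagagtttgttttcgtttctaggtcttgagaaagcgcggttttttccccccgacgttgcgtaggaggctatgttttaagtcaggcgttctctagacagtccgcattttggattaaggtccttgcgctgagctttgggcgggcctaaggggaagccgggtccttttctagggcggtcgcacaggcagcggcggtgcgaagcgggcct

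A promoter was found for 66 of the 80 members, and the others, not shown here, include Ndufs1, Cox4i2, Uqcrc2, Cox6a2, Ndufa4l2, Cox4i1, Uqcrq, Uqcrb, Cox8c, Cox6c, Ndufb9, Ndufa2 and Atp5a1. In Atp5k the NRF1 core occurs on both strands in overlapping positions and is followed by the ETS and receptor letters. Atp5e holds the ETS and receptor letters, Ndufa3 and Ndufa9 the YY1-type letters, and Cox7a2l none of the 4. Over the 66 promoters the NRF1 core was found in 13.6%, against 2.80% of 27025 promoters of all genes, the ETS letters in 19.7% against 9.12%, the YY1-type letters in 15.2% against 2.88% and the receptor letters in 10.6% against 4.66%. TATAAA was found in 10.6% of member promoters and 14.2% of all, and GACGTG, a form of the hypoxia response core, in 9.09% and 6.35%. The YY1-type letters were in 7 of 32 complex I promoters and in none of the 13 of complex IV. Of the promoters shown, the YY1-type letters were in members at both ends of the injury comparison and the other 3 motifs only in Atp5e and Atp5k.

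Alternative versions of a subunit are given as shares of their summed UMIs, since in 3′ counting a captured transcript gives 1 UMI whatever its length. Ratios of the injured library went with transcript length as given above, and the part of length in its shares was not tested. Cox4i1 and Cox4i2 encode versions of subunit 4, which carries the regulation of complex IV by ATP. In stromal-like cells Cox4i1 had 1134, 666, 492, 492 and 786 CPM, and Cox4i2 had 95.5, 183, 312, 408 and 452 CPM. The share of Cox4i2 in the pair was 7.77% (7.62 to 7.92) at 3 d, 21.5% at 3 w, 38.8% at 16 w, 45.4% at 78 w and 36.5% in the injured disc. Mural-like cells had 21.8%, 21.8%, 34.6%, 36.1% and 33.4%, endothelial-like cells 1.99% to 12.2%, synovial lining-like cells 1.30% to 9.65% and macrophage-like cells 1.43% to 8.71%. The Cox4i2 share was thus highest in stromal-like and mural-like cells.

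The course of Cox4i2 differed between the stromal-like clusters. Cluster 1, with Chad among its leading genes, had 243, 232, 385, 501 and 612 CPM. Cluster 2 had 152, 102, 168, 229 and 308 CPM, and cluster 3 stayed between 16.9 and 57.5 CPM. From 3 d to 3 w, therefore, Cox4i2 was not higher within any of these clusters, although the cluster 1 level at 3 d rested on 110 cells. Between these libraries the main holder of stromal-like cells changed from clusters 2 and 3 to cluster 1. The part of this change in the stromal-like ratio of 1.92 was not tested. From 3 w to 16 w and from 16 w to 78 w it was higher within both cluster 1 and cluster 2. Cells of at least 1000 UMIs were thinned to 1000 UMIs and the others left out. In the injured disc this kept 6540 of 6864 stromal-like and 374 of 474 macrophage-like cells. The share of thinned stromal-like cells with a Cox4i2 UMI was 8.77% at 3 d, 12.8% at 3 w, 20.02% at 16 w, 25.6% at 78 w and 28.9% in the injured disc. Without thinning, over all stromal-like cells, it was 35.1%, 58.3%, 62.8%, 71.0% and 54.1%. Macrophage-like cells, which serve as the background of free RNA, had 2.62%, 1.75%, 0%, 1.75% and 5.88% after thinning, with median depths of 2174 to 10907 UMIs against 3575 to 13230 in stromal-like cells. The 0% stands for 0 of 105 cells at 16 w and has an upper exact bound of 3.45%.

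Ndufa4l2 and Ndufa4 form a similar pair but differ in spliced length, with 934 and 460 bases, whereas Cox4i1 and Cox4i2 have 755 and 730. Ndufa4l2 had 564, 1048, 1201, 1585 and 1703 CPM in stromal-like cells, and its share in the pair was 63.0%, 86.5%, 93.1%, 93.4% and 85.4%. Averaged over the libraries it gave 7.92% of the member sum. Mural-like cells had shares of 79.4% to 90.7%, synovial lining-like cells 60.2% to 79.8%, endothelial-like cells 19.1% to 56.99% and macrophage-like cells 22.0% to 59.8%. By cluster, cluster 1 had 2600, 1330, 1471, 1901 and 2293 CPM, cluster 2 had 787, 540, 650, 1013 and 1151 CPM, and cluster 3 had 250 to 321 CPM. As with Cox4i2, no cluster was higher at 3 w than at 3 d, and clusters 1 and 2 were higher at 78 w than at 16 w. Thinned cells held a Ndufa4l2 UMI in 29.6%, 48.9%, 51.3%, 62.6% and 62.8% of stromal-like cells and in 4.76% to 19.3% of macrophage-like cells, without thinning in 65.2% to 90.5% and 21.8% to 31.6%.

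**Figure D4:**
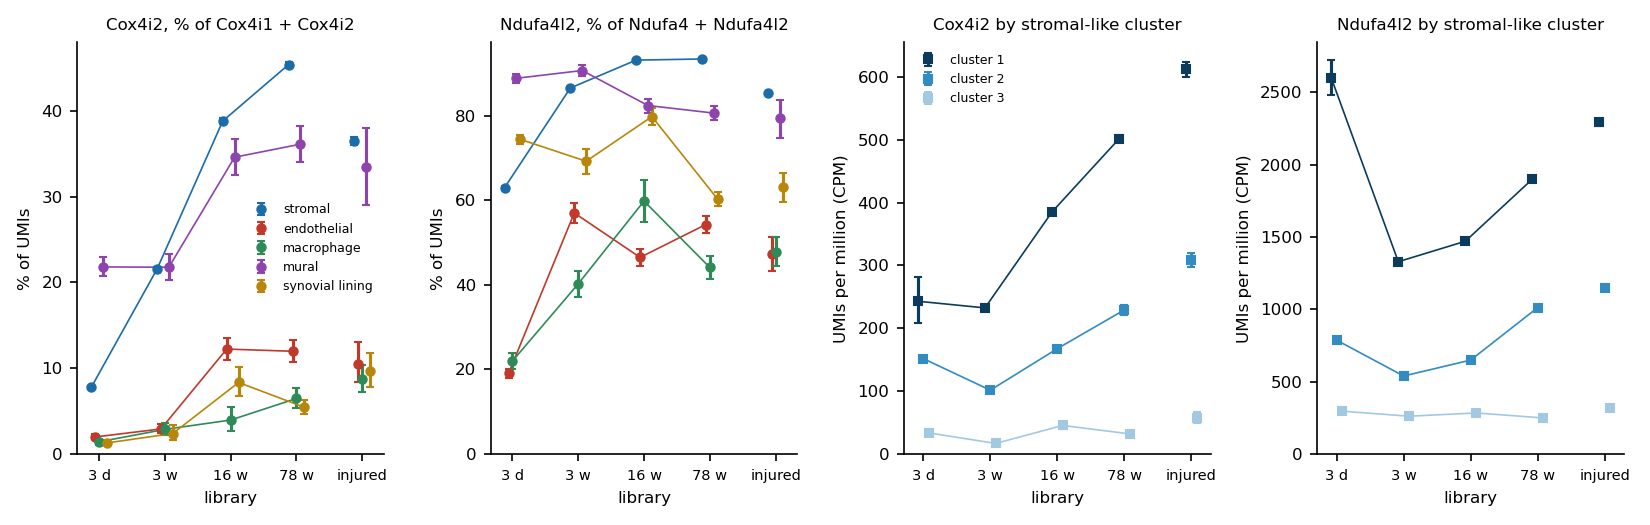
Left, share of Cox4i2 and of Ndufa4l2 in the UMIs of their pairs (percent) by library in 5 cell classes. Right, CPM of Cox4i2 and Ndufa4l2 by library in stromal-like clusters 1 to 3, with bars for exact 95% counting intervals. In stromal-like cells the Cox4i2 share went from 7.77% at 3 d to 45.4% at 78 w, while within clusters the levels were not higher at 3 w than at 3 d.

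The other versions showed the common forms throughout. Cox6b1 had 330, 207, 173, 225 and 352 CPM from 3 d to the injured disc in stromal-like cells, and the share of Cox6b2 in that pair was 14.8% at 3 d, 3.42% at 3 w, 5.03% at 16 w, 2.91% at 78 w and 5.30% in the injured disc. Among the 3 genes of the c subunit, Atp5g2 gave 54.8% to 61.3% of UMIs, Atp5g1 20.2% to 29.1% and Atp5g3 16.1% to 22.3%. Atp5g3 itself had 186, 135, 115, 135 and 157 CPM. The common forms Cox6a1 (283, 117, 148, 150 and 206 CPM), Cox7a2 (320, 227, 257, 297 and 464 CPM) and Cox8a (585, 428, 433, 536 and 896 CPM) far exceeded their muscle partners.

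The muscle versions were nearly absent from stromal-like cells. Cox6a2 gave at most 0.638% of the Cox6a pair there, with 0.0375 to 0.962 CPM, Cox7a1 at most 0.438% of its pair, with 0.524 to 2.04 CPM, and Cox8b at most 0.156%, with 0.122 to 0.675 CPM. The testis versions Cox8c and Cox7b2 stayed at or below 0.107 CPM. In cluster 5, led by muscle genes, Cox6a2 gave 8.47% of its pair at 3 d (69 of 815 UMIs) and Cox8b 1.34%. Cox7a1 was found instead in macrophage-like cells, at 2.07% to 4.29% of its pair in the 5 libraries, and in mural-like cells at 0% to 2.98%, where the 0% stands for 0 of 651 UMIs at 3 w, with an upper exact bound of 0.565%. After thinning, 0% to 1.60% of macrophage-like cells and 0.0392% to 0.229% of stromal-like cells held a Cox7a1 UMI.

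Cell classes were compared with the stromal-like cells of the same library, which share its handling but not its depth per cell. At 3 d, for example, median UMIs per cell were 8440 in stromal-like, 5257 in endothelial-like, 10363.5 in macrophage-like and 7248 in mural-like cells. The member sum of mural-like cells was 1.32 times that of stromal-like cells at 3 d, 0.990 at 3 w, 1.42 at 16 w, 1.39 at 78 w and 1.07 in the injured disc. Their mt- sum was higher in all 5 libraries, at 1.16, 1.47, 1.63, 2.10 and 1.34 times. Of 73 members compared, 26 were higher in mural-like cells in all 5 libraries, where 21.0% of all genes were, and none was lower in all 5, where 16.0% were. By the median ratio 16 members were at least 1.5-fold higher, where 14.6% of all genes were, and 1 was lower, where 12.7% were. Among the largest medians were those of Cox6b2 at 2.12 (0.985 to 3.24 over the libraries) and Atp5d, the delta subunit of complex V, at 1.96 (1.19 to 2.20). The lowest were Ndufa4l2 at 0.598 (0.479 to 2.00), Ndufa4 at 0.726 (0.388 to 2.03) and Cox7a2l at 0.7996 (0.731 to 1.26). Ndufa4l2 was thus above stromal-like cells in mural-like cells at 3 d and below them at the other ages.

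Macrophage-like cells lay close to stromal-like cells, with summed ratios of 1.06 at 3 d, 0.952 at 3 w, 1.05 at 16 w, 0.987 at 78 w and 1.06 in the injured disc, while their mt- sum was lower in all 5, at 0.816 to 0.944. By the median ratio 6 of 73 members were higher, where 18.2% of all genes were, and 2 lower, where 21.5% were. The highest were Cox5a, a matrix-side subunit of complex IV, at 2.06 (1.88 to 2.35), and Ndufb7 and Ndufb8, of the membrane arm of complex I, at 1.74 (1.39 to 2.09) and 1.67 (1.42 to 1.82). The lowest were Cox4i2 at 0.131 (0.0849 to 0.207), Ndufa4l2 at 0.157 (0.119 to 0.202) and Ndufb11, also of the membrane arm, at 0.722 (0.572 to 0.771). Without Ndufa4l2 and Cox4i2, 2 members chosen after their values were seen, the summed ratio was above 1 in all 5 libraries, from 1.04 to 1.19.

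Endothelial-like cells changed sides with age, at 1.18 times the stromal-like sum at 3 d, 0.799 at 3 w, 1.21 at 16 w, 0.985 at 78 w and 0.848 in the injured disc. By the median ratio 5 of 72 members were higher, where 18.4% of all genes were, and 2 lower, where 12.7% were. Ndufa8, an accessory subunit of complex I, was highest at 2.10 (1.10 to 3.18), then Ndufa4 at 1.84 (0.907 to 3.57) and Cox5a at 1.81 (1.51 to 2.14). The lowest were Cox4i2 at 0.201 (0.118 to 0.273), Ndufa4l2 at 0.222 (0.187 to 0.255) and Ndufa13, a complex I subunit also known as GRIM-19, at 0.685 (0.416 to 0.922). Cox5a was higher, and Cox4i2 and Ndufa4l2 lower, than in stromal-like cells in all 5 libraries for both endothelial-like and macrophage-like cells. The 10 stromal markers gave 5490 to 19486 CPM in these 3 other classes against 33308 to 67934 in stromal-like cells, with none of the 10 at 0, and their part in the ratios was not tested.

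**Figure D5:**
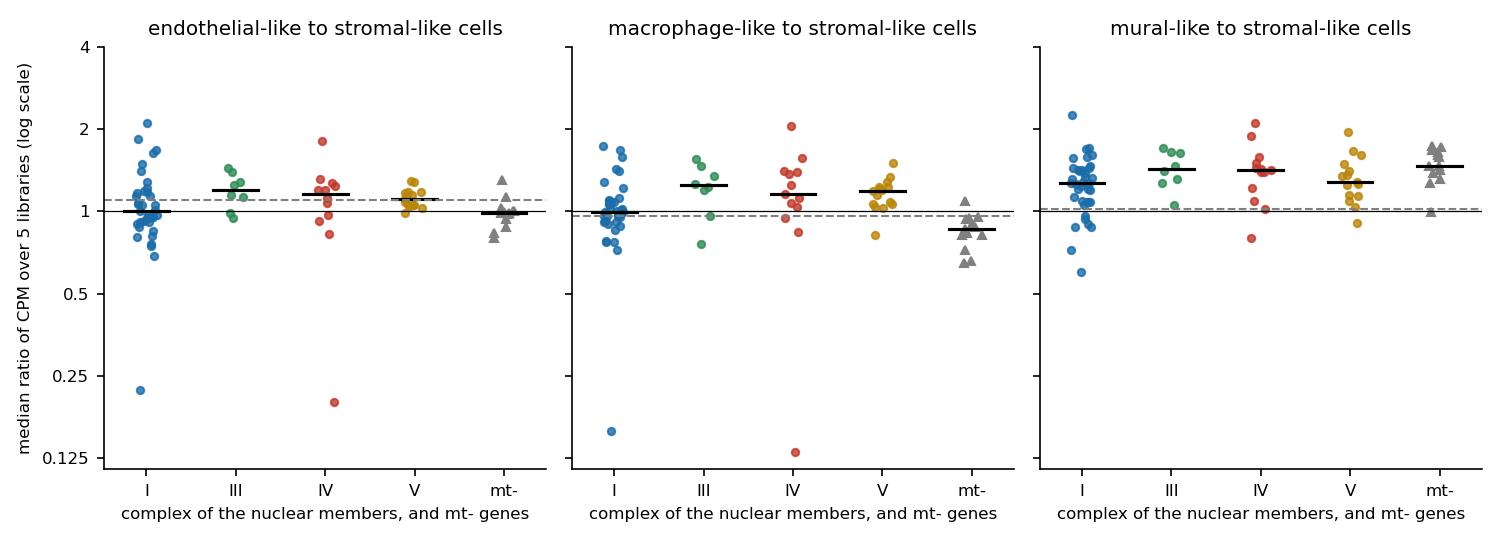
Median over the 5 libraries of the ratio of CPM to stromal-like cells (log axis) for the members of each complex and for the mt- genes (horizontal axis) in endothelial-like, macrophage-like and mural-like cells, with black bars for medians and a dashed line for the median of all tested genes. Cox4i2 and Ndufa4l2 lie far below 1 in endothelial-like (0.201 and 0.222) and macrophage-like cells (0.131 and 0.157), and most members lie above 1 in mural-like cells.

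In the other classes the members were also lower at 3 w than at 3 d, and later ages differed between classes. From 3 d to 3 w the summed ratio was 0.479 in endothelial-like, 0.635 in macrophage-like and 0.529 in mural-like cells, with 60 of 73, 49 of 74 and 60 of 73 members lower, where 30.2%, 21% and 30.4% of all genes of those classes were. Higher were 0, 0 and 1 members, where 28.3%, 27.8% and 29.3% of all genes were. Summed cell cycle genes were lower too, from 1343 to 166 CPM in endothelial-like, 1175 to 256 in macrophage-like and 1351 to 177 in mural-like cells. Erythroid markers went from 1939 to 9.48 CPM, 2417 to 1.03 and 806 to 10.3 in the same order, and the part of both lists was not tested. From 3 w to 16 w it was 1.38 in endothelial-like and 1.30 in mural-like cells, with 37 and 31 of 73 members higher, where 20% and 17% of all genes were, and 1 and 2 lower, where 12.2% and 18% were, but 1.01 in macrophage-like cells, with 2 of 74 higher and 1 lower, where 14.1% and 14.5% were. From 16 w to 78 w the ratios were 0.962, 1.11 and 1.16 in endothelial-like, macrophage-like and mural-like cells, with 0, 4 and 1 members higher, where 2.88%, 6.22% and 4.85% of all genes were, and 0, 0 and 1 lower, where 3.95%, 14.7% and 5.58% were.

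In the injured disc the sum was higher than at 3 w in each class, at ratios of 1.60 in endothelial-like, 1.67 in macrophage-like and 1.62 in mural-like cells, with 37 of 73, 39 of 74 and 38 of 73 members higher, where 13.2%, 13.6% and 16.3% of all genes were. Lower were 7, 5 and 6 members, where 30.3%, 30.8% and 29.7% of all genes were. Against 16 w the ratios were 1.16, 1.66 and 1.24, with 5, 40 and 18 members higher, where 10.6%, 15.9% and 16.9% were, and 13, 4 and 12 lower, where 35.2%, 31.6% and 29.1% were. The mural-like value rested on 117 cells in the injured disc and the macrophage-like value on 112 cells at 16 w. Length and ratio over members had a Spearman rho of -0.63, -0.61 and -0.68 against 3 w in endothelial-like, macrophage-like and mural-like cells. Against 16 w rho was -0.61, -0.54 and -0.51. Over all genes with a length it was -0.28, -0.26 and -0.22 against 3 w, and -0.17, -0.33 and -0.20 against 16 w. The part of length in these classes was not tested. Macrophage markers in stromal-like cells, 9 genes with none at 0, were summed at 142 CPM in the injured disc and 14.3 to 30.6 CPM in the other libraries, led by Lyz2 with 57.2 CPM, and their part in the injured stromal-like values was not tested. The nuclear RNAs were highest in the injured library in these 3 classes too, at 63255, 46228 and 77180 CPM, and their part was not tested.

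Other lists of mitochondrial metabolism are set against the same background of all genes, 10.8% higher and 32.6% lower against 3 w and 13.8% higher and 28.2% lower against 16 w. Of 23 genes compared from the assembly factor list, 10 were higher and 5 lower against 3 w. Against 16 w 12 were higher and 1 lower. Among those higher against 3 w was Usmg5, a small subunit of complex V, with 105 CPM at 3 w and 353 CPM in the injured disc. Mitochondrial ribosomal protein genes gave 8 higher and 19 lower of 71 against 3 w, near the background, and 22 higher and 4 lower against 16 w. None of 16 genes of the citric acid cycle was higher in either comparison and 4 were lower in each, near the background for lower genes. The 6 genes listed as complex II and cytochrome c include Cyc1 of complex III. None of the 6 was higher, and 3 and 1 were lower. Of 24 carriers, porins and import genes 3 were higher and 5 lower against 3 w, and 5 higher and 3 lower against 16 w. Of 14 glycolytic genes 1 was higher and 2 lower against 3 w, and 0 higher and 4 lower against 16 w. Immediate early genes, which report handling of tissue as well as stimulation, were lower in 4 of 8 against 3 w and in 6 of 8 against 16 w, with summed levels of 4703, 8135, 13226, 8541 and 5921 CPM, and their part in the member values was not tested.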

How the data were processed

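Single cells of TMJ discs were captured with 10x 3′ chemistry after digestion with Pronase and Collagenase P. The authors deposited filtered matrices of whole-number UMI counts per gene and barcode, made with Cell Ranger on mm10; the file headers give version 4.0.0 and the submitters' processing notes 3.1. Barcodes with over 200 UMIs and at most 30% of UMIs on mt- genes were kept, which left 14959, 9372, 8775, 10115 and 8467 cells at 3 d, 3 w, 16 w, 78 w and injured; 260 barcodes were over that limit. Libraries were integrated with anchors in Seurat 5.3.0 (R 4.3.3, Matrix 1.6.5; 2000 features, 30 dimensions, resolution 0.2), without the members, mt- or cytosolic ribosomal protein genes. Cell types are rebuilt from fixed markers, so names may differ from the study's. No doublet caller was run; leaving out cells above the 95th percentile of UMIs was an alternative.

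Counts were summed per class and library and scaled to CPM (Python 3.11.15, numpy 2.4.6, pandas 2.3.3, scipy 1.17.1, matplotlib 3.10.9), with exact Poisson, conditional and Clopper-Pearson 95% intervals. PCR and sampling of animals are not covered by them. The ratio script was tested on simulated counts for stromal-like cells from 3 d to 3 w over 7505 genes: 100 of 100 genes changed 2-fold and 3 of 7305 unchanged genes were called. Named genes were subunit versions, core subunits, the 3 members with the largest ratios in each direction per stromal-like comparison and per class, and mt- genes; some items that this rule takes in are not reported here. The members and lists were chosen with earlier results of these data known. Exons of Ndufb2 and Ndufb8 overlap another listed gene on the same strand, so their counts are uncertain. Alternatives covered clustering, gating, filters, scaling and weighting.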

Additional observations from a re-analysis of the deposited data

Results flagged for a closer look

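The values here differed between cell classes of the same libraries or stood away from the other libraries, and no difference between classes was tested, since each condition has 1 library. From 3 w to 16 w the member sum had a ratio of 1.38 in endothelial-like and 1.30 in mural-like cells against 0.909 in stromal-like cells, and from 16 w to 78 w it was 0.962 in endothelial-like against 1.18 in stromal-like cells. From 3 d to 3 w Cox4i2 had a ratio of 0.587 in mural-like against 1.92 in stromal-like cells, and Ndufa4l2 had 0.545 against 1.86. As given above, neither gene was higher at 3 w than at 3 d within any stromal-like cluster. The main stromal-like cluster changed between these libraries, and the part of this change in the stromal-like ratios was not tested.

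From 3 w to 16 w, 4 members of the complex I list were higher in endothelial-like and lower in stromal-like cells: Ndufa8 (1.77 against 0.610), Ndufa4 (2.14 against 0.544), Ndufc2 (1.73 against 0.546) and Ndufs4 (1.83 against 0.643). Ndufa4 also had a ratio of 2.65 in mural-like cells. Ndufb9, an accessory subunit of complex I, had a ratio of 0.624 from 16 w to the injured disc in mural-like cells against 1.58 in stromal-like cells. The member sum of synovial lining-like cells relative to stromal-like cells was 1.31 at 16 w against a median of 1.18 over the 5 libraries, a gap of 0.740 of the whole range, past Dixon's 95% critical value. This was the only one of 8 groups of class and list screened in that way, where chance alone sets about 1 in 20 groups apart, and its 5 values come from different conditions and are not replicates.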

How the results depend on the processing

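The member sums in stromal-like cells kept their direction in all alternatives run except 1, and no paired analysis was possible because each condition has 1 library and the labels give no replicate numbers. From 3 d to 3 w the ratio of 0.708 became 0.702 without integration, 0.696 with a marker gate per cell, 0.697 outside the mt- genes, 0.696 outside the 100 highest genes, 0.635 with median-of-ratios size factors, 0.7098 with equal weight per cell and 0.629 with equal weight of the clusters. From 3 w to 16 w the ratio of 0.909 became 0.915 with the gate, 0.912 outside the mt- genes, 0.922 outside the highest genes, 0.974 with size factors, 0.906 without cells above the 95th percentile of UMIs, 0.895 per cell and 0.964 with equal clusters. From 16 w to 78 w the ratio of 1.18 became 1.18, 1.17, 1.19, 1.22, 1.17, 1.17 and 1.13 in that order of settings. Injured against 3 w, the ratio of 1.505 became 1.49 at resolution 0.5, 1.49 outside the mt- genes, 1.63 outside the highest genes, 1.87 with size factors, 1.49 without the deepest cells, 1.498 per cell and 1.58 with equal clusters. Injured against 16 w, 1.66 became 1.65 without integration, 1.64 at resolution 0.5, 1.65 with the gate, 1.63, 1.76, 1.92, 1.65, 1.67 and 1.63 in the order just given. Each stromal-like cluster alone, an alternative chosen after seeing the data, gave 0.664, 0.662 and 0.560 from 3 d to 3 w for clusters 1, 2 and 3, then 0.881, 0.930 and 1.11 from 3 w to 16 w, where cluster 3 reversed, then 1.20, 1.16 and 1.03 from 16 w to 78 w. Injured against 3 w these were 1.46, 1.66 and 1.64, and against 16 w clusters 2 and 3 gave 1.78 and 1.48. The cause of these shifts was not tested. A call at 2-fold, stricter by construction, left 12 of 44 members from 3 d to 3 w, 1 of 13 from 3 w to 16 w, 0 of 1 from 16 w to 78 w, 20 of 45 injured against 3 w and 21 of 44 against 16 w. From 16 w to 78 w the count was also 0 outside the mt- genes and 4 with no filter beyond 1 UMI in each library. For the ratio to stromal-like cells, taken as the median over the 5 libraries, the endothelial-like value of 0.985 reversed to 1.03 with equal weight per cell, and the macrophage-like value of 1.05 to 0.971 outside the 100 highest genes, while the mural-like median stayed above 1 in 10 of 10 alternatives, from 1.15 to 1.39, although its 3 w library alone had 0.990. Counting intervals do not cover differences between animals, which 1 library per condition cannot show.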
